A study of Drosophila melanogaster with 2 samples.

Results

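The Notch receptor gene and 9 genes of its core pathway (N, Ser, Su(H), numb, fng, neur, mib1, H, mam and kuz) were examined in a map of where the Drosophila melanogaster protein Psq sat on embryonic chromatin. The genes were a named list, 10 of the 13945 protein-coding genes annotated on the 6 chromosome arms used. A peak was assigned to a gene when its summit lay in the gene body or within 2000 bp upstream. This gave 18 of the 2999 summits of the authors' reproducible peak set, and 132 of the 30000 summits of their relaxed list called on both replicates pooled. Pipsqueak, the Psq protein, is a chromatin factor of the BTB family that recognises GA-rich repeats. The chromatin came from whole embryos of 0 to 24 hours, both sexes mixed, from 1 transgenic line that stably makes Psq with GFP fused to its C terminus, and was precipitated through the GFP. The 2 samples were biological replicates 3 and 4 of this single group, so there was no second condition and no test between conditions. An embryo collection of this span mixes all tissues and stages, and a peak cannot be assigned to a cell type. Only peaks were available, with no counts of reads and no expression values, so sequencing depth is unknown and the labelled embryo tissue could not be checked against marker genes.

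Notch signalling passes between neighbouring cells. A ligand on one cell (Delta or Serrate) pulls on the Notch receptor of the next, the receptor is cut first by the metalloprotease Kuzbanian and then by gamma-secretase, and its intracellular part enters the nucleus. There it joins the DNA-binding protein Suppressor of Hairless and the coactivator Mastermind to switch on target genes, which Hairless keeps silent in the absence of signal. In the fly embryo the pathway is best known for lateral inhibition, which sets how many cells of a proneural cluster become neuroblasts, and for asymmetric divisions, in which Numb blocks the receptor in 1 daughter cell.

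Of the 10 genes, 7 had at least 1 summit in the reproducible set, against 20.3% of all protein-coding genes under the same rule. This set is the authors' list thresholded by irreproducible discovery rate (IDR), and its summits are called IDR summits here. The share was also higher in longer genes. Among genes whose body plus upstream stretch measured 20000 to 50000 bp, 39.3% had an IDR summit, and N, numb, fng and neur, but not Ser, were among those that did. From 5000 to 20000 bp the share was 28.8%, and mib1 and H had a summit there while Su(H) had none. At 50000 bp and more it was 45.5%, with mam on the one side and kuz on the other. The 7 genes were the receptor, the receptor modifier fng, the ubiquitin ligases neur and mib1, the inhibitor numb and the nuclear factors H and mam. The 3 without were the ligand gene Ser, the DNA-binding factor gene Su(H) and the receptor protease gene kuz. The genes were chosen with earlier results of these data known, so the count was not tested.

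**Figure D1:**
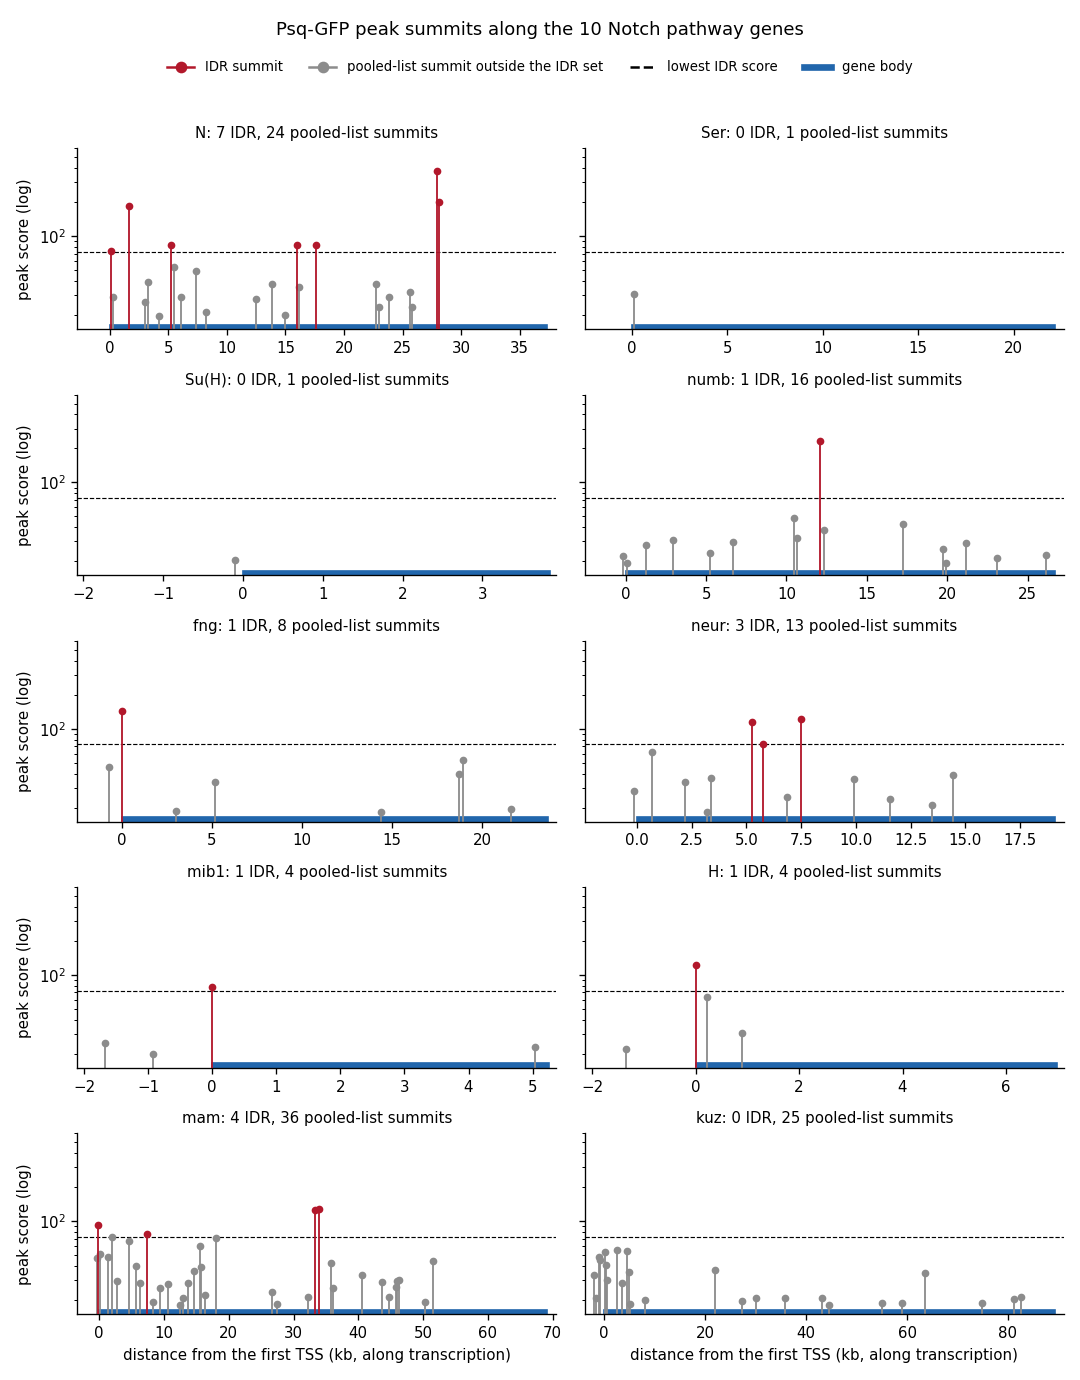
Summits of the pooled list along each of the 10 genes, in kb from the first annotated transcription start site (TSS) in the direction of transcription, against the authors' peak score on a log axis. Red summits are in the IDR set and grey ones are not; the dashed line is the lowest IDR score, 72.5, and the blue bar is the gene body. N has the highest summit (380) near 28 kb, and Ser, Su(H) and kuz stay under the line.

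The only IDR summits of numb, fng, mib1 and H, the neur summit with the longest GA run and the 3 strongest of N are shown as sequence, because they differ in repeat content. Each is a stretch of 201 bases centred on the summit (base 101), on the gene's sense strand, from the RefSeq dm6 assembly. Capitals mark every GAGAG or its complement CTCTC, the unit of the GAGA-type repeat, and in H the motif GGTCACAC of the promoter factor M1BP.
N, intron 1, chrX:3136426-3136626, plus strand: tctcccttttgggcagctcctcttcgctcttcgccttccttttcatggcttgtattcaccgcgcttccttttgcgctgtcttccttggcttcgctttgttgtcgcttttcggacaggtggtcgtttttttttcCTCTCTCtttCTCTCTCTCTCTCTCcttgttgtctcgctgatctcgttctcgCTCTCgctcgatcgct
N, intron 5, higher summit, chrX:3162705-3162905, plus strand: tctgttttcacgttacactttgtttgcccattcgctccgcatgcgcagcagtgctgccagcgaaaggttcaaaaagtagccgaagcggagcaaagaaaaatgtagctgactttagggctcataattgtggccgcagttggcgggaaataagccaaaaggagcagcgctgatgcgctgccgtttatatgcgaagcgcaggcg
N, intron 5, lower summit, chrX:3162911-3163111, plus strand: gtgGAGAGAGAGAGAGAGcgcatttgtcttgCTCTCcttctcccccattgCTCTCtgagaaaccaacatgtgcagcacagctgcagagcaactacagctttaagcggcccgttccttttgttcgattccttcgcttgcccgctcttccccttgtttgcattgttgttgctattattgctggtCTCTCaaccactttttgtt
numb, before the inner TSS, chr2L:9449483-9449683, plus strand: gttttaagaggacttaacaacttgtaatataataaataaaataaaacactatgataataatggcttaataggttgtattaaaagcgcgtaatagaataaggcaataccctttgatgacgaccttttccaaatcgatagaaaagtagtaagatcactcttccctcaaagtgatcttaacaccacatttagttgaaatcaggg
fng, promoter, chr3L:20949425-20949625, minus strand: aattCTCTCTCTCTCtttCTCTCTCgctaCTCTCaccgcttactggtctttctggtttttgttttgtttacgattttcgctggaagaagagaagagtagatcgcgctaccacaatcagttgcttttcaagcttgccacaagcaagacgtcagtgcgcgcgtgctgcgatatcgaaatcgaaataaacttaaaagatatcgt
neur, before the inner TSS, chr3R:9034128-9034328, minus strand: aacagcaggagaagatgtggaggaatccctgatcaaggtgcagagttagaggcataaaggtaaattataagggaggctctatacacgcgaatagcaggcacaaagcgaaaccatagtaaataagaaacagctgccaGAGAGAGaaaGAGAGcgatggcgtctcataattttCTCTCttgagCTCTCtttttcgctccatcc
mib1, promoter, chr3L:16011718-16011918, minus strand: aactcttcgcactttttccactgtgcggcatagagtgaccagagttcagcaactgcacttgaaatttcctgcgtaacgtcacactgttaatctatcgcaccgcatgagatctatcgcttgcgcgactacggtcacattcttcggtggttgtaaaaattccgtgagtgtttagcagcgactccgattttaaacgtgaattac
H, promoter, chr3R:20621849-20622049, plus strand: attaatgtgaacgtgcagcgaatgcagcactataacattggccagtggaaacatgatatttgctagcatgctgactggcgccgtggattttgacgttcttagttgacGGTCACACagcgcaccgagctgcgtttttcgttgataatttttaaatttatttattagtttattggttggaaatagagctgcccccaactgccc
The fng TSS is base 114 of its stretch, the mib1 TSS base 107 and the H TSS base 90. The numb and neur stretches end before the TSS.

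N, the receptor gene (FBgn0004647, X, 3134870 to 3172221, plus strand, 37.4 kb, 1 annotated TSS), held 7 of the 18 IDR summits, against 4 at mam, the next of the 10. That order turned in the 2999 strongest peaks of replicate 4 alone, where N had 5 summits and mam 6, while those of replicate 3 alone gave 6 at N and 3 at mam. Above the median IDR score N kept 3 and mam 2. As many or more were found at 25 of the 13945 protein-coding genes, and at 1.12% of the 807 genes in its length class. N also had 24 pooled-list summits, where the median of that class was 7. The summits ran at 1.78 per 10 kb, where genes of that class averaged 0.273 per 10 kb. The highest, at 3162805, had a score of 380 and rank 123 of the pooled list, and by its highest score N stood 161st of the 2834 genes with an IDR summit. Peak scores are the authors' own statistic, have a separate scale in each list, and serve here only to rank peaks within a list. This summit lay in intron 5 of 8 of the longest transcript, 27935 bp downstream of the TSS. It shared 1 peak of 842 bp (3162392 to 3163233) with a second summit 206 bp further on, whose score was 201. Most peaks of the pooled list, 97.8%, were 440 bp wide.

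Both replicates held the 2 summits of that wide peak apart. For the higher one the score was 171 in replicate 3 and 216 in replicate 4, at ranks 140 and 111 of their own lists of 30000. The lower one had 85.9 in replicate 3 and 84.5 in replicate 4. The 2 are among the sequences printed above, and they differ in base content: the stretch around the lower summit has a GA run of 15 bases near its start (3162914 to 3162928), and the stretch around the higher summit has no GAGAG. The run lies between the summits, 109 bp downstream of the higher one and 83 bp upstream of the lower one.

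The next N summit by score lay in the first intron, 1656 bp downstream of the TSS, with 186 in the pooled list (rank 561), 85.6 in replicate 3 and 106 in replicate 4. Its peak was 197 bp wide (3136399 to 3136595). A CT run of 16 bases began 42 bp beyond the summit, and 9 GAGAG units, counted on both strands and some overlapping, fell within 100 bp. The other 4 summits of N were weak, with pooled scores from 73.6 to 83.9. They lay 96 bp downstream of the TSS (73.6), 5247 bp downstream in the first intron (83.5), and 15965 and 17622 bp downstream in the second intron (83.1 and 83.9). The summit at the N promoter was thus the lowest of the 7, and its rank of 2928 was close to the end of the IDR set.

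No IDR summit of N lay inside another annotated gene. The intron 5 summits lay nearer to the TSS of CG18508, which is beyond the 3′ end of N and 10335 bp from the higher summit, than to that of N.

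Of the genes that act on the receptor or its ligands before cleavage, fng encodes the glycosyltransferase that changes which ligand Notch answers to. fng (FBgn0011591, 3L, 20925891 to 20949512, minus strand) had 1 IDR summit, 13 bp upstream of its only TSS, with a score of 144 (rank 881). The replicates gave 75.0 in replicate 3 and 71.2 in replicate 4, at ranks 758 and 1057. In the printed stretch a CT run of 13 bases lies at the upstream end, 85 bp from the summit, with 7 GAGAG units in all. The rest of the gene had 6 pooled-list summits of 18.4 to 53.3, and another of 45.3 lay in the upstream stretch, all below the IDR limit.

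neur and mib1 encode RING-type ubiquitin ligases that drive endocytosis of the ligands. neur (FBgn0002932, 3R, 9020348 to 9039471, minus strand, 19.1 kb) has 2 annotated TSSs, and its 3 IDR summits clustered around the inner one, inside the 15309 bp first intron of the longer transcript. They lay 497 bp upstream of the inner TSS with a score of 115, 19 bp downstream with 72.5, and 1756 bp downstream with 121. Of the 807 genes in the length class of neur, 11.3% had as many IDR summits or more. In the replicates the summit at 497 bp had 57.1 in replicate 3 and 58.0 in replicate 4, and the one at 1756 bp had 71.9 and 47.5 in the same order.

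The neur summit 19 bp from the inner TSS was the weakest of the 18, rank 2998 of the 2999 IDR summits. It overlapped no peak of replicate 3, while replicate 4 had one of score 48.9 at rank 2136. Only 2 of all 2999 IDR peaks lacked a replicate 3 peak and 3 lacked a replicate 4 peak. A place in the IDR set thus did not need an overlapping peak in each replicate. The peak just outside the limit among the 10 genes was in mam, with 72.2 at rank 3017. The outer neur TSS had no IDR summit, and the best pooled-list summit of neur outside the IDR set, of 61.7, lay 675 bp into the gene and 36 bp from the TSS of hyx, a subunit of the Paf1 transcription elongation complex, whose start overlaps neur.

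mib1 (FBgn0263601, 3L, 16006552 to 16011812, minus strand, 5.26 kb) had 1 IDR summit, 6 bp upstream of its outer TSS, with a score of 77.5 at rank 2682. The replicates differed in where they ranked it. It had 30.9 in replicate 3, at rank 3806 and so outside the 2999 strongest of that list, and 48.3 in replicate 4, at rank 2183. By highest score it stood 2598th of the 2834 genes with an IDR summit, the lowest place of the 7.

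Ser (FBgn0004197, 3R, 27172090 to 27194267, minus strand, 22.2 kb) encodes the ligand Serrate and had no IDR summit. A single pooled-list summit of score 30.5 (rank 12157) lay between its TSSs, 138 bp downstream of the outer one, and no other fell anywhere in the 24.2 kb searched. It overlapped no replicate 3 peak, and replicate 4 had 18.2 at rank 12759. Genes of its length class had a median of 7 pooled-list summits, and 14.4% of them had 1 or none. A pooled-list summit was found at 68.5% of all protein-coding genes and at all 10 genes here. That list includes background by design, so such a summit is not by itself a site.

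kuz (FBgn0259984, 2L, 13550139 to 13639411, plus strand, 89.3 kb) is the longest of the 10 and encodes the metalloprotease that makes the first cut in the engaged receptor. It had 25 pooled-list summits and no IDR summit. Of the 113 protein-coding genes with 25 or more pooled-list summits, 10 (8.85%) had no IDR summit. The highest kuz scores, 55.6, 54.5 and 53.0, lay 2570, 4608 and 112 bp downstream of its TSS, all in the first 5 kb of the gene. Their highest rank was 4543. The score of 55.6 was above the highest pooled score of 86.3% of the 6722 genes with a pooled-list summit but no IDR summit. Those genes were not matched to kuz for length. In its length class the median number of pooled-list summits was 13. Beyond 6 kb no summit of kuz scored above 37.1. The summit of 55.6 had 34.0 in replicate 3 (rank 3257) and 14.8 in replicate 4 (rank 18971), so replicate 3 ranked it higher.

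numb (FBgn0002973, 2L, 9437469 to 9464184, plus strand, 26.7 kb) encodes the membrane-associated inhibitor that keeps Notch inactive in 1 daughter of an asymmetric division. Its only IDR summit had a score of 232 at rank 334, the second strongest gene of the 10, with 110 in replicate 3 and 124 in replicate 4. The ranks in the replicates, 347 and 359, were nearly equal. The summit belonged to the inner of 2 TSSs, 247 bp upstream of it, which is 12114 bp downstream of the outer TSS and in the second intron of the longer transcript. The outer TSS had no pooled-list summit above 22.1 within 500 bp. The numb peak was 253 bp wide (9449440 to 9449692). Its printed stretch holds no GAGAG and was the lowest of the 18 in G and C, at 31.3%, where the median over the 2999 IDR stretches was 37.8%. The 15 other pooled-list summits of numb scored at most 48.0.

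Su(H) (FBgn0004837, 2L, 15039488 to 15043334, plus strand, 3.85 kb) is the gene for the DNA-binding factor at the end of the pathway. Of the 10 genes it had the lowest top score in the pooled list. Its single pooled-list summit, 101 bp upstream of the TSS, had a score of 20.4 at rank 24774 of 30000. It overlapped no peak in replicate 3, and had 18.9 in replicate 4, where the Ser summit had 18.2. Genes in the length class of Su(H) had a median of 2 pooled-list summits, and 34.0% of them had 1 or none. Of the 6722 genes with a pooled-list summit but no IDR summit, not matched for length, 9.25% had a lower highest score.

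H (FBgn0001169, 3R, 20621938 to 20628915, plus strand, 6.98 kb) encodes Hairless, which holds Su(H) with corepressors at silent targets. It had 1 IDR summit, 11 bp downstream of its only TSS, with a score of 124 at rank 1169. Replicate 3 had it at 85.0 and rank 598, 8 bp away. The nearest overlapping summit in replicate 4 was 186 bp away, at 44.2 and rank 2563, and that peak matched a second pooled-list summit of H 212 bp downstream of the TSS. This second summit had a score of 64.2 and rank 3657, outside the IDR set. Replicate 3 also had a weaker peak there, of 30.7 at rank 3851, while replicate 4 had a single peak. The GGTCACAC in the H stretch begins 7 bp past the summit.

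mam (FBgn0002643, 2R, 13991203 to 14060356, plus strand, 69.2 kb), the gene for the coactivator Mastermind, had 4 IDR summits, and 12.2% of the 336 genes in its length class had as many or more. Its strongest were a pair 721 bp apart in intron 3 (27528 bp), with scores of 125 and 130. They lay 7179 and 6458 bp upstream of the innermost of 3 TSSs and 33281 and 34002 bp from the first. The first of the pair had 56.2 in replicate 3 and 69.9 in replicate 4, and the other 51.6 and 77.6. Both were nearer to the TSS of CG18371, a gene nested in mam, at 4136 and 3415 bp. A promoter summit, of 92.0, was 116 bp upstream of the first TSS and 380 bp from the TSS of RN-tre, which runs the other way. The replicates had 44.7 and 49.1 for it, in replicates 3 and 4. The weakest, of 76.6, was 7404 bp into the gene in the second intron, about equally far from a small non-coding RNA entry inside mir-4978.

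Below the IDR limit mam had 3 pooled-list summits (72.2, 70.7 and 67.2) whose q was at the maximum of the list. This was the highest such count of the 10, not scaled to length: the mam region was 71.2 kb, and H had 1 in 8.98 kb of the same list. The −log10 q of the pooled list stops at 3.87, a value that all IDR peaks share. The one of 70.7 lay 40 bp from the second TSS of mam, with 49.3 in replicate 4 (rank 2112). In replicate 3 it overlapped 2 peaks, and the one with the nearer summit, 67 bp away, had 9.82 (rank 28843). Over the 10 genes, 114 pooled-list summits were outside the IDR set, and 4 of them, the 3 in mam and the second one in H, were at the maximum.

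**Figure D2:**
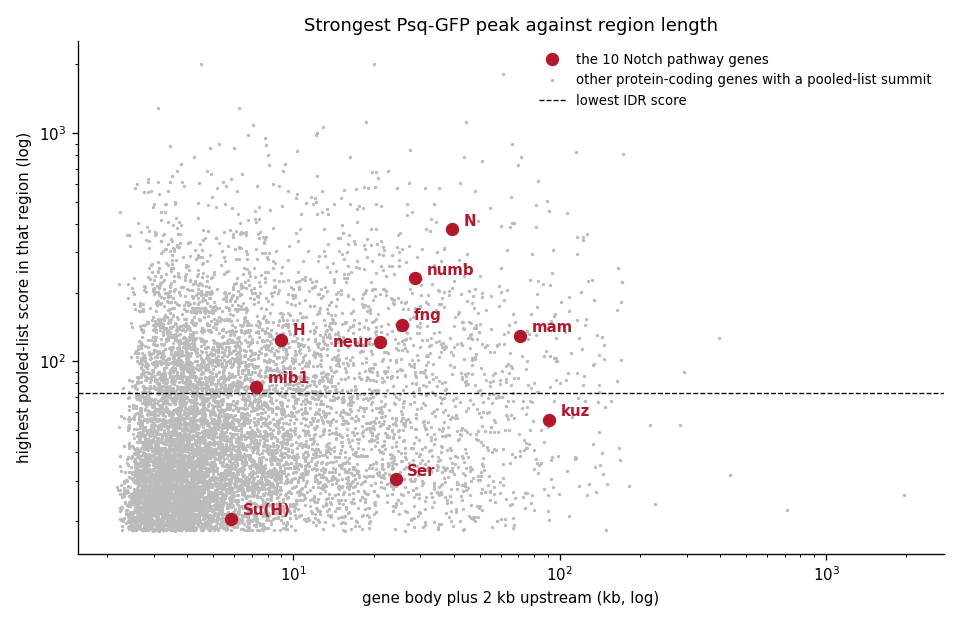
Highest pooled-list score in each gene (log axis) against the length of the gene body plus 2000 bp upstream (log axis), for the 10 Notch pathway genes in red and the other protein-coding genes with a pooled-list summit in grey; the dashed line is the lowest IDR score. N and numb stand highest of the 10 at 380 and 232, while kuz, the longest, stays at 55.6.

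By position, with summits within 500 bp of a TSS counted as promoter summits first, 8 of the 18 were promoter summits (44.4%) and the other 10 lay in introns. Of the 8, 3 (the numb one and 2 of neur, at inner TSSs) also lay in an intron of the longest transcript. Over all IDR summits, classed the same way, 55.8% were promoter summits and 31.8% intronic. The intronic summits had a median score of 123 at the 10 genes and 104 over all IDR summits. The promoter summits had medians of 103 at the 10 genes and 113 over all, and neither difference was tested. Of the 8 promoter summits, 5 were upstream of the TSS of their gene and 3 downstream, from 6 to 497 bp. N held 6 of the intronic summits, mam 3 and neur 1. For 13 of the 18 the nearest TSS of any gene was that of the pathway gene itself, and the other 5 were in introns of N and mam.

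In the replicates' own lists, 17 of the 18 summits overlapped a peak in both by at least 1 bp, where 99.8% of all IDR summits did. Within the 2999 strongest peaks of each replicate, 12 of the 18 overlapped both, beside 75.7% of all IDR summits (2271). Of the other 6, 2 were in the strongest peaks of replicate 3 alone and 4 in those of replicate 4 alone. Both of the first kind were in N, the promoter summit and the one of 83.9 in the second intron, which had 52.8 in replicate 3 (rank 1495) and 30.9 in replicate 4 (rank 4716). The mib1 summit, the weakest mam summit, the neur summit at the inner TSS and the N summit of 83.1 were of the second kind. The median distance between the summit and that of the nearest overlapping replicate peak was 18 bp in replicate 3 and 12 bp in replicate 4 at these genes, and 11 and 9 bp over all IDR summits. With 2 replicates no test between them was possible.

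**Figure D3:**
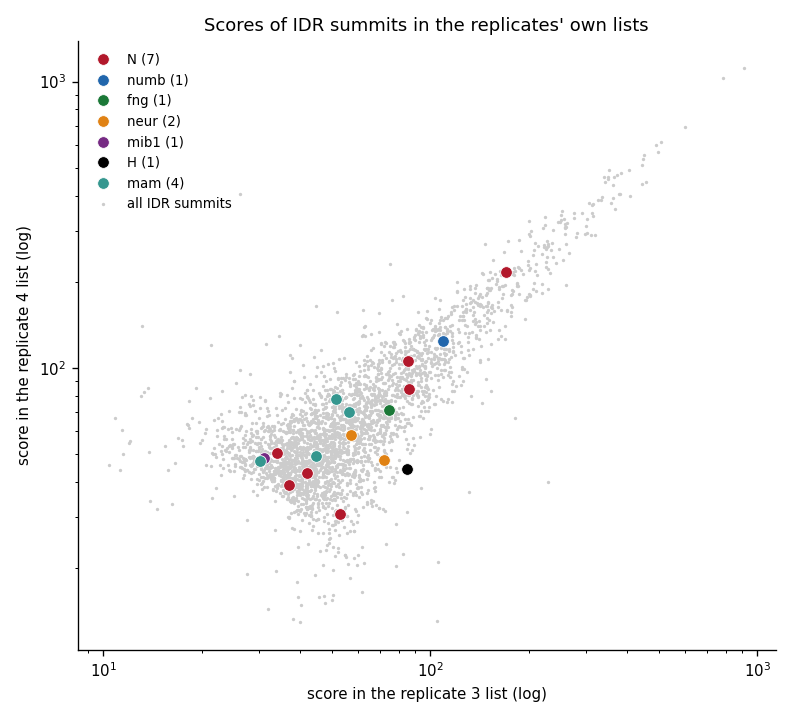
Score of each IDR summit in the list of replicate 3 (x, log) and of replicate 4 (y, log), with the 17 Notch pathway summits found in both lists coloured by gene and all IDR summits in grey. The N summit of 171 and 216 and the numb summit of 110 and 124 lie along the grey cloud. The H summit has 85.0 in replicate 3, and its 44.2 in replicate 4 is from an overlapping peak with its summit 186 bp away.

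Repeats of the GAGA type were near some of these summits and absent from others. GAGAG, searched on both strands, occurred within 100 bp of 8 of the 18 summits (4 of the promoter summits and 4 of the intronic ones), where 33.1% of all 2999 IDR summits had it. In windows of the same width centred 1000 bp to the left and right, 8 and 3 of the 18 had it, and 23.6% and 23.8% of all. The left-hand windows at these genes thus held it as often as the summits. The longer GAGAGAG, which contains GAGAG, occurred at 4 of the 18 summits, 2 in N and 1 each in fng and neur, and at 9.64% of all. The summits of 380 in N, 232 in numb and 130 and 125 in mam had neither, as the printed N and numb stretches show.

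Where GAGAG was present it was not at the summit itself. The nearest unit was centred 35 bp away in the first intron of N, 38 bp at neur, 48 bp at the lower N summit of the wide peak and 69 bp at fng. The shortest distance was 19 bp, at the weakest mam summit. The Su(H) binding motifs GTGGGAA and GTGAGAA were in 0 of the 18 stretches, and in 3.0% and 2.87% of all 2999. TATCGATA, the DREF motif, and the E-box CACGTG were also in 0 of 18, and in 3.1% and 2.33% of all. GGTCACAC was in the H stretch only, and in 2.17% of all. These are letter matches on both strands, not measured sites.

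**Figure D4:**
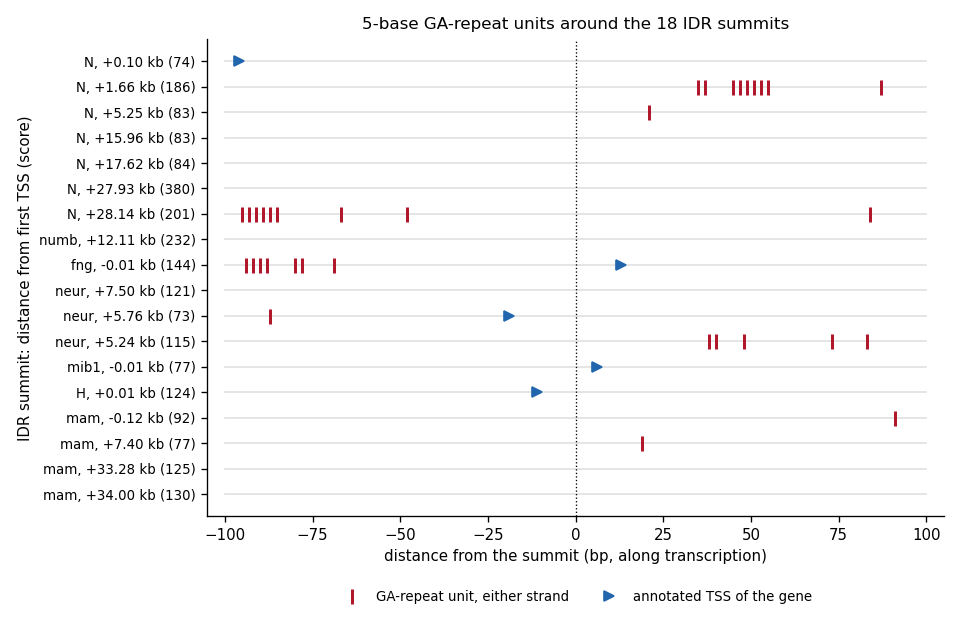
Position of each 5-base GA-repeat unit (red, either strand) within 100 bp of the 18 IDR summits, in bp along transcription, with the TSS of the gene in blue where it falls in range; rows give the gene, the distance of the summit from its first TSS and the score. Runs appear in introns 1 and 5 of N, at fng and at neur, and the rows of 380 (N) and 232 (numb) are empty.

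Beyond the 10 genes, 30 other genes of the pathway were listed. Of these, 9 (30.0%) had an IDR summit under the same rule, against 20.3% of all protein-coding genes. The latter share was 28.8% for regions of 5000 to 20000 bp, and the 30 genes were not matched for length. The second ligand gene, Delta (Dl), had none, like Ser: its 13 pooled-list summits reached 36.8. Of the gamma-secretase genes, which encode the enzyme of the second cut, aph-1 had a summit of 166, 307 bp from its TSS but nearer to that of Snx21. Nct had one of 75.8, 982 bp away and nearer to CG7006, and Psn and pen-2 had none. rumi, which encodes an O-glucosyltransferase acting on Notch, had 127 at 143 bp, while the fucosyltransferase gene O-fut1 had none.

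Genes for trafficking of the receptor were also among the 9. The E3 ligase genes dx, whose product binds the intracellular domain, and Nedd4 had summits of 152 and 120, at 205 and 334 bp from a TSS, and Nedd4 had 3 IDR summits. AP-2alpha, an endocytic adaptor subunit gene, had 200 at 157 bp, but nearer to the TSS of ebi. bib, a big brain channel-family gene, had 115 at 252 bp, with 76.8 in replicate 3 and 41.4 in replicate 4. lqf, which encodes the epsin needed for ligand endocytosis, had 73.1 at 127 bp, near the IDR limit. The corepressor gene gro had 2 summits, the stronger of 177 at 131 bp, with 84.1 in replicate 3 and 90.7 in replicate 4. Of the 21 genes without an IDR summit, aux came nearest with a pooled score of 71.9, followed by the protease gene Kul with 66.3, and pon and CycC had no pooled-list summit at all.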

How the data were processed

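Psq-GFP chromatin immunoprecipitation sequencing was done on embryos in 2 biological replicates, with DNA sonicated to 200 to 800 bp, per the labels. According to a text file deposited beside the lists, the authors made relaxed lists (peaks with background) per replicate and for the pool, and from these an optimal IDR-thresholded list. No aligner, caller or threshold is given in the sources used here. A peak's deposited score is the caller's statistic, with its own scale in each list. The deposited −log10 q stops at a maximum in the pooled list. The deposited summit offset was added to the peak start. The dm6 lists were used, with coordinates written 1-based; dm3 lists were not used here, and the control experiment that the labels name was not analysed here.

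Gene models were Ensembl release 115, without transposable elements, and sequence came from the RefSeq dm6 assembly. Counts were made with Python 3.11.15, numpy 2.4.6 and pandas 2.3.3, and tested on simulated summits. Of several overlapping replicate peaks, the one with the nearest summit was taken. Summits were assigned to genes on either strand. The members and lists were chosen with earlier results of these data known. The genes named were the 10 members, listed pathway genes with an IDR summit, and genes nearer to a member's summit; others were named after their values were seen. No test was made, since there is 1 group. The annotation calls Dl Delta and nct Nct.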

Additional observations from a re-analysis of the deposited data

How the results depend on the processing

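Genes with an IDR summit numbered 7 of 10, and genes with a summit numbered between 5 and 8 under all alternatives. The gene body alone gave 5, which leaves out fng and mib1 with summits 13 and 6 bp upstream of the TSS. Leaving out either replicate gave 6 to 8. It meant taking the 2999 strongest peaks of the other replicate's relaxed list, which includes background. IDR thresholding was not redone. Without replicate 3 mam had 6 summits and N 5, so N no longer had the most. Without replicate 4 mib1 was lost, and without replicate 3 kuz gained a summit beside the TSS of B4. IDR summits at the 10 genes numbered 18, against 10 above the median IDR score. With a replicate left out, 14 to 20 of the other replicate's strongest peaks had their summit there. Over all protein-coding genes 20.3% had an IDR summit, against 8.5% in the gene body alone and 11.7% above the median score. With either replicate left out, 19.9% had a summit among the strongest peaks of the other. GAGAG was near 8 summits within 100 bp, 5 within 50 bp and 16 within 250 bp, where 17.0% and 61.5% of all IDR summits had it in the last pair of windows. In windows centred 1000 bp to the left and right, the 250 bp setting gave 14 and 7 of the 18, and 47.9% and 48.3% of all. The 50 bp setting gave 4 and 2 of the 18, and 12% and 12.2% of all. No paired analysis was possible because there is 1 group. Read depth is unknown, so counting error cannot be given, and both replicates come from the same line.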

Other observations

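GA or CT runs of 9 bases or more lay at 4 of the 18 summits, in 3 genes, and runs of 13 or more at 3 summits. The longest uninterrupted run of the GA or CT type measured 16 and 15 bases at 2 summits of N, 13 at fng and 9 at neur, and 7 bases or fewer at the other 14 summits. Over the 2999 IDR stretches the median was 4 bases, 1.37% (41) had 13 or more and 3.97% (119) had 9 or more. These lengths were picked after the values were seen, and no test was made.

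The pooled-list summits that missed the IDR set were seen in the replicates about as often at these genes as elsewhere. Of the 114, 64 (56.1%) overlapped a peak in both replicate lists, 46 in 1 and 4 in neither, beside 53.1% in both for all 27001 such summits. At kuz, the summits of 48.1 and 45.4 upstream of the TSS lay 166 and 36 bp from a TSS of the neighbouring gene B4, and both overlapped the same replicate 4 peak of 41.5 at rank 2871. The fng summit of 53.3 lay 2775 bp from the TSS of CG10589, a gene nested in fng.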
